A study of Mus musculus with 8 samples.

Results

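Imprinted growth-control genes were examined in mouse embryonic fibroblasts (MEFs), which are fibroblasts grown from mouse embryos. The 10 members are H19, Meg3, Cdkn1c, Grb10, Mest, Dlk1, Peg3, Plagl1, Ndn and Sgce. They were chosen by gene symbol as genes of the imprinted network, with earlier results of these data known. They are 10 of 48527 genes in the deposited table of expression per library. Per the labels, the tested cells received, by lentivirus, wild-type YAP fused to mCherry (2 libraries) or to GFP (2 libraries). The controls received an empty vector (EV) that encoded mCherry (2 libraries) or GFP (2 libraries). Cells of both vectors were grown with doxycycline (Dox), and the series' design states that they were sorted by FACS on the fluorescent reporter. No genotype, mouse strain, embryo age or promoter of the vector is given in the labels. Nothing in them says that the replicates are separate cultures. Every p-value below therefore rests on the spread of these libraries alone, and that spread may be technical.

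An imprinted gene is transcribed mainly from the copy inherited from the mother or from the copy inherited from the father, according to DNA methylation laid down in the germ line. Many imprinted genes act on the growth of the embryo: several expressed from the maternal copy restrain it, and several expressed from the paternal copy promote it. In the mouse a number of them are switched on together in embryonic tissues and switched off after birth, and embryonic fibroblasts still express them. YAP is a transcriptional co-activator that the Hippo kinases restrain and that acts mainly through TEAD transcription factors. The study compared cells with and without overexpressed YAP. Its libraries report total RNA of each gene and do not tell the parental copies apart.

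Levels are given as FPKM (fragments per kilobase of transcript, scaled for library size), which allows for transcript length. How the libraries were scaled is not given, and comparison between genes is approximate. The sum of FPKM ranged from 733152 to 1018404 per library and the depth in fragments is unknown. All 13 fibroblast markers had a mean of at least 1 FPKM, while the muscle factors Myod1, Myog, Myf5 and Pax7 were listed at 0 in every library. Yap1, the mouse gene for the overexpressed protein, had 82.9 and 84.9 FPKM in YAP mCherry libraries and 80.0 and 80.7 FPKM in YAP GFP libraries, against 93.2 and 92.2 FPKM in EV mCherry libraries and 88.5 and 88.4 FPKM in EV GFP libraries. All 4 YAP libraries were below all 4 EV libraries, with a log2 difference of -0.14 and a limma adjusted p of 0.259. The species and sequence of the YAP insert are not given in the labels, so this row may not count its transcripts and does not show whether YAP was overexpressed. Directions below go by the labels.

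H19, Mest and Meg3 carry microRNAs inside their transcription units, and these are shown because they mark what the host transcripts can be processed into. The sequences are the mature microRNAs of RefSeq on GRCm38.p6, with the seed (bases 2 to 8) in capitals. H19, on the minus strand of chromosome 7, holds miR-675 in an exon, at chr7:142577112-142577133 for the 5p arm. Mest, on the plus strand of chromosome 6, holds miR-335 in an intron, at chr6:30741314-30741336 for the 5p arm. Meg3, on the plus strand of chromosome 12, holds miR-770 in an exon, at chr12:109563710-109563731 for the 5p arm, and miR-1906, at chr12:109544588-109544609.
miR-675-5p: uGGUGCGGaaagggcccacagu
miR-675-3p: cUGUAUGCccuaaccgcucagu
miR-335-5p: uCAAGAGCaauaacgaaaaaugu
miR-335-3p: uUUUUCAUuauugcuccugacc
miR-770-5p: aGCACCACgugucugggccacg
miR-770-3p: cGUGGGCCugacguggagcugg
miR-1906: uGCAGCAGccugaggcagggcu
No 2 of these 7 seeds are the same. The table's own rows for these microRNA genes were listed at 0 in all 8 libraries. The libraries were made from polyadenylated RNA, so mature microRNAs were not measured and the values below are those of the host transcripts.

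Promoters were read because YAP acts through TEAD factors. Windows of the 250 bases before the start were available from RefSeq (GRCm38.p6) for 7 of the 10 members, in 11 windows, and H19, Cdkn1c and Sgce had none. The core TEAD motif GGAATG, read on both strands, stood in 12.6% of 32851 such windows genome-wide, and in windows of 14.4% of 27025 genes. Among the 7 members only Peg3 had it, beginning 84 bases before the start. The Peg3 window, chr7:6730420-6730669 on the minus strand, is shown with the motif in capitals, beside the Mest window, chr6:30737803-30738052 on the plus strand, which has no copy of it.
Peg3: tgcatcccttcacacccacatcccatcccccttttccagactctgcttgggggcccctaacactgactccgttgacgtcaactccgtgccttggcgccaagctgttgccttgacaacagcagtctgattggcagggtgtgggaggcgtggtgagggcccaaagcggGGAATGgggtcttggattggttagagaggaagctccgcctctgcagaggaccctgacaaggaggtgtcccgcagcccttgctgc
Mest: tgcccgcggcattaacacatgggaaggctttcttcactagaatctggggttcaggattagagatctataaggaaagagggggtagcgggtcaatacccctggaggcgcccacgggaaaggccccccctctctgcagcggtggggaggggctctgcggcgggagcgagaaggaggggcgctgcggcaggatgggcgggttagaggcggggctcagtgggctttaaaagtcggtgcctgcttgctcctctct
The motif TGCCGC of the imprint-maintaining zinc finger ZFP57, on both strands, was found in windows of 3 of the 7 members, Meg3, Mest and Plagl1. It was found in windows of 9.84% of all genes and in 8.68% of all windows. The motif GGGGCCCC of PLAGL1, which reads the same on both strands, was found in the Peg3 window and in 0.889% of all windows. A match is a description of the letters and not a measured binding site.

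No member passed the threshold between YAP and EV libraries. Mest, Dlk1 and Peg3, which are expressed from the paternal copy, had lower levels in YAP libraries, with log2 differences of -0.39, -0.31 and -0.26. Cdkn1c, the gene of the cell cycle inhibitor p57, was 2.55-fold higher in YAP than in EV libraries among those with GFP and close to equal in the mean (23.6 FPKM in YAP and 23.3 FPKM in EV libraries) among those with mCherry. H19 and Meg3, the most abundant members, differed by less than 0.2 on the log2 scale over all 8 libraries.
The test was limma on log2(FPKM + 0.5) over the 13276 genes with a mean of at least 1 FPKM, with a term for the reporter and Benjamini-Hochberg adjustment. Genes with an adjusted p under 0.05 were called. All 10 members passed the filter on level. Among all tested genes 1.76% passed the threshold, 124 higher (0.934%) and 109 lower (0.821%) in YAP libraries, and among the members 0 of 10 did. At an unadjusted p under 0.05 there were 3 members lower in YAP libraries and 0 higher. Among all 13276 tested genes 945 were lower (7.12%) and 981 higher at that limit. In the authors' deposited table, which marks 5.95% of its tested genes as significant, 0 of the 10 members are marked. The log2 difference was above 0 for 7 members and below 0 for 3, with a median of 0.090 beside -0.0038 over all tested genes.

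**Figure D1:**
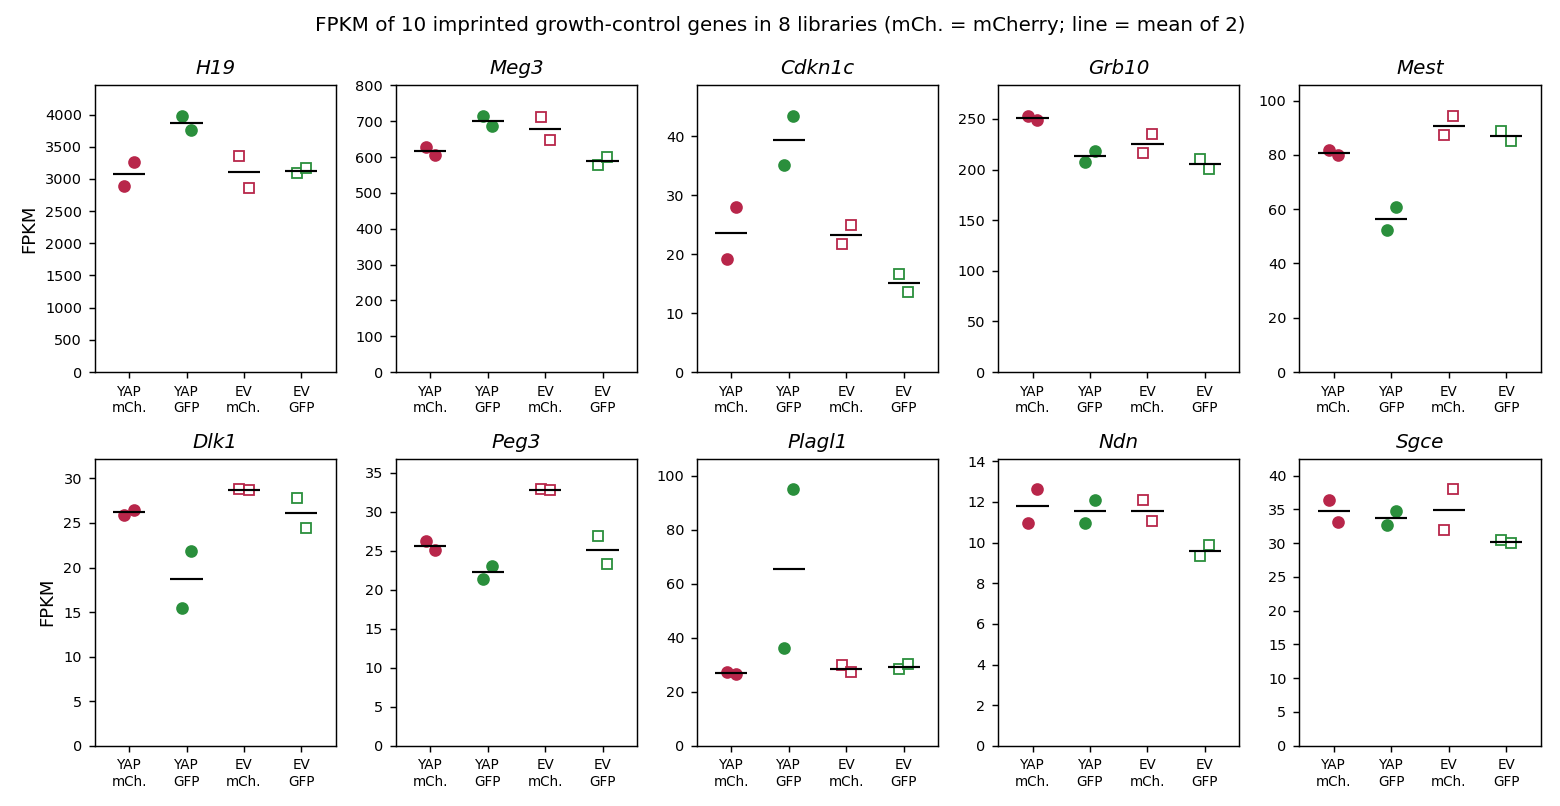
FPKM (vertical axes, from 0) of the 10 members in the 8 libraries. Filled circles are YAP libraries, open squares are EV libraries, red is mCherry and green is GFP, and each line is the mean of 2 libraries. In the Mest panel all 4 YAP libraries lie below all 4 EV libraries, and in the Cdkn1c panel the YAP GFP libraries lie highest and the EV GFP libraries lowest.

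Members expressed from the maternal copy are described first. H19 (ENSMUSG00000000031, chr7:142575529-142578143, minus strand, GRCm38) is a long non-coding RNA that shares an imprinting control region and enhancers with Igf2 and restrains growth. It had 2897 and 3267 FPKM in YAP mCherry libraries and 3982 and 3767 FPKM in YAP GFP libraries, against 3359 and 2862 FPKM in EV mCherry libraries and 3095 and 3164 FPKM in EV GFP libraries. Both YAP GFP libraries were above the other 6, which overlapped one another. Its level was 3478 ± 490 FPKM in YAP and 3120 ± 205 FPKM in EV libraries (SD, n = 4 each), at percentile 99.9 of the tested genes. The log2 difference was 0.15 (SE 0.092, limma adjusted p 0.524). It was -0.011 within mCherry and 0.31 within GFP, where the adjusted p was 0.224.

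Meg3 (ENSMUSG00000021268, chr12:109541001-109571726, plus strand) is a long non-coding RNA of the Dlk1 to Dio3 cluster and the first unit of a long maternal transcription domain. It had 629 and 604 FPKM in YAP mCherry libraries and 715 and 685 FPKM in YAP GFP libraries, against 712 and 647 FPKM in EV mCherry libraries and 578 and 601 FPKM in EV GFP libraries. Within mCherry the YAP libraries were lower than the EV libraries, and within GFP they were higher. The log2 difference was -0.14 within mCherry (SE 0.072, limma adjusted p 0.557) and 0.25 within GFP (SE 0.072, adjusted p 0.196). The difference between these 2 effects was -0.39 (SE 0.10), with an unadjusted p of 0.00905 and an adjusted p of 0.385. Over all 8 libraries the difference was 0.055 (SE 0.090, adjusted p 0.827), and after quantile normalization it was -0.021.

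Cdkn1c (ENSMUSG00000037664, chr7:143458339-143461050, minus strand) encodes p57, an inhibitor of cyclin-dependent kinases that halts the cell cycle and limits embryonic growth. It had 19.2 and 27.96 FPKM in YAP mCherry libraries and 35.1 and 43.5 FPKM in YAP GFP libraries, against 21.6 and 24.9 FPKM in EV mCherry libraries and 16.5 and 13.6 FPKM in EV GFP libraries. The GFP arms stood at the 2 ends of the range, and the mCherry arms overlapped each other between them. Means were 31.4 ± 10.3 FPKM in YAP and 19.2 ± 5.03 FPKM in EV libraries (SD, n = 4 each), and the log2 difference was 0.67 (SE 0.29, limma adjusted p 0.348). The difference was -0.00088 (SE 0.21) within mCherry and 1.35 (SE 0.21) within GFP. The GFP effect had an unadjusted p of 0.000703 and an adjusted p of 0.0527, and adjusted p ran from 0.0527 to 1 over the 19 alternative settings. The difference between the reporters' effects was -1.35 (SE 0.30), with an unadjusted p of 0.00413 and an adjusted p of 0.315. Within EV, mCherry minus GFP was 0.61 (limma unadjusted p 0.0287, adjusted p 0.456). Within YAP it was -0.74 (limma unadjusted p 0.0132, adjusted p 0.290).
An antisense gene model, Gm44732 (chr7:143459749-143460640, plus strand), lies inside Cdkn1c. It was listed at 0 and 13.5 FPKM in YAP mCherry libraries and at 13.3 and 0 FPKM in YAP GFP libraries, against 21.5 and 18.4 FPKM in EV mCherry libraries and 19.6 and 19.4 FPKM in EV GFP libraries. All 4 YAP libraries were below all 4 EV libraries for this model, and the limma adjusted p was 0.351. The library kit keeps strand, but whether the counting used it is not given in the sources used here. Reads of Cdkn1c and of the antisense model may therefore have been split between them, so Cdkn1c values are uncertain to that extent. The part of this in the GFP difference was not tested. In the authors' deposited table Cdkn1c has 37.3 FPKM for YAP and 35.5 FPKM for the control arm, named FP (q-value 0.874). These are 1.19 and 1.85 times the means of the 4 YAP and the 4 EV libraries. FP also stands in the names of the EV mCherry libraries, so whether the arm pools all 4 EV libraries is not certain. Means were 23.3 FPKM in EV mCherry and 15.1 FPKM in EV GFP libraries.

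Grb10 (ENSMUSG00000020176, chr11:11930508-12038683, minus strand) encodes an adaptor that binds the insulin and IGF1 receptors and dampens their signal. In the mouse it is expressed from the maternal copy in most tissues and from the paternal copy in neurons. It had 253 and 249 FPKM in YAP mCherry libraries and 208 and 218 FPKM in YAP GFP libraries, against 216 and 235 FPKM in EV mCherry libraries and 211 and 200 FPKM in EV GFP libraries. The YAP mCherry libraries were the highest and the other arms overlapped. Its log2 difference was 0.10 (SE 0.058, limma adjusted p 0.469), 0.16 within mCherry and 0.052 within GFP.

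Members expressed from the paternal copy follow. Mest (ENSMUSG00000051855, chr6:30723547-30748465, plus strand) encodes a protein with an alpha/beta hydrolase fold, promotes embryonic growth in the mouse and hosts the miR-335 arms printed above. It had 81.8 and 79.8 FPKM in YAP mCherry libraries and 52.3 and 60.8 FPKM in YAP GFP libraries, against 87.2 and 94.4 FPKM in EV mCherry libraries and 88.6 and 85.0 FPKM in EV GFP libraries. All YAP libraries were below all EV libraries, and the YAP GFP libraries were the lowest. Mest was the 1 member of 10 whose groups did not overlap, where 9.46% of all tested genes did not overlap and 4.83% were lower in YAP libraries without overlap. Its mean was 68.7 ± 14.4 FPKM in YAP and 88.8 ± 4.03 FPKM in EV libraries (SD, n = 4 each). The log2 difference was -0.39 (SE 0.11, limma unadjusted p 0.00809, adjusted p 0.161). By exact permutation (two-sided) the p was 0.0286, the smallest that 4 against 4 libraries can give. That value follows from the lack of overlap and adds nothing to it. The exact p was 0.114 for Dlk1, Peg3 and Cdkn1c and higher for the remaining members.
Within mCherry the Mest difference was -0.17 (SE 0.098, adjusted p 0.597) and within GFP it was -0.62 (SE 0.098, unadjusted p 0.000693, adjusted p 0.0526). Adjusted p ran from 0.0526 to 0.597 over the 19 alternative settings. The effects of the 2 reporters differed by 0.45 (SE 0.14, unadjusted p 0.0168, adjusted p 0.411). Copg2, which encodes a coatomer subunit, lies on the opposite strand with its end inside Mest (chr6:30747554-30896794). Copg2 had 20.03 and 12.3 FPKM in YAP mCherry libraries and 11.9 and 12.6 FPKM in YAP GFP libraries, against 10.1 and 10.7 FPKM in EV mCherry libraries and 9.85 and 10.2 FPKM in EV GFP libraries. All its YAP libraries were above all its EV libraries, with a log2 difference of 0.42 and a limma adjusted p of 0.274, and the 2 genes cannot be separated in their shared stretch if strand was not used.

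Dlk1 (ENSMUSG00000040856, chr12:109452823-109463336, plus strand) encodes a transmembrane protein with EGF-like repeats, related to Notch ligands, that holds back the differentiation of preadipocytes. It had 25.9 and 26.5 FPKM in YAP mCherry libraries and 15.5 and 21.8 FPKM in YAP GFP libraries, against 28.8 and 28.7 FPKM in EV mCherry libraries and 27.8 and 24.4 FPKM in EV GFP libraries. The YAP GFP libraries were the lowest, and the YAP mCherry libraries lay within the EV range. On the log2 scale Dlk1 differed by -0.31 (SE 0.13, limma unadjusted p 0.0471, adjusted p 0.339), -0.13 within mCherry and -0.49 within GFP. Without YAP replicate 1 it was -0.18.

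Peg3 (ENSMUSG00000002265, chr7:6703892-6730431, minus strand) encodes a large zinc finger protein that affects growth and maternal behaviour in the mouse, and its promoter window is the 1 printed above with a TEAD motif. It had 26.2 and 25.1 FPKM in YAP mCherry libraries and 21.4 and 23.1 FPKM in YAP GFP libraries, against 32.9 and 32.8 FPKM in EV mCherry libraries and 27.0 and 23.3 FPKM in EV GFP libraries. Within each reporter the YAP libraries were lower than the EV libraries, and across reporters the groups overlapped. On the log2 scale Peg3 differed by -0.26 (SE 0.079, limma unadjusted p 0.0128, adjusted p 0.199), -0.35 within mCherry and -0.17 within GFP. Unlike that of Mest, the Peg3 difference was larger in value within mCherry, and the difference between the effects was -0.18 (adjusted p 0.716).

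Plagl1 (ENSMUSG00000019817, chr10:13060504-13131694, plus strand) encodes a zinc finger transcription factor, also called Zac1, that in mouse tissue has been linked to the expression of other imprinted genes, H19, Igf2 and Cdkn1c among them. It had 27.2 and 26.7 FPKM in YAP mCherry libraries and 36.1 and 94.9 FPKM in YAP GFP libraries, against 29.9 and 27.3 FPKM in EV mCherry libraries and 28.3 and 30.1 FPKM in EV GFP libraries. The high mean of the YAP group came from 1 library, YAP replicate 2, and the other 7 libraries lay between 26.7 and 36.1 FPKM. Plagl1 differed by 0.46 on the log2 scale (SE 0.33, limma adjusted p 0.594) over all 8 libraries and 0.071 without YAP replicate 2. GENCODE lists 25 transcripts for this gene. The authors' deposited table gives 78.6 FPKM for YAP and 71.0 FPKM for the control arm FP (q-value 0.648). These are 1.70 and 2.46 times the means of the 4 YAP and the 4 EV libraries. Over all tested genes the median of the EV ratio was 1.14. Among the other members the EV ratio was 1.95 for Grb10, 1.85 for Cdkn1c, 1.47 for Meg3 and 1.27 for Dlk1. It was 1.21 for Peg3, 1.17 for Mest, 1.14 for H19, 1.13 for Ndn and 1.11 for Sgce.

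Ndn (ENSMUSG00000033585, chr7:62346569-62350262, plus strand) encodes necdin, a MAGE family protein that binds E2F1 and p53 and is expressed in post-mitotic neurons and in mesenchymal cells. It had 10.98 and 12.6 FPKM in YAP mCherry libraries and 10.98 and 12.1 FPKM in YAP GFP libraries, against 12.1 and 11.05 FPKM in EV mCherry libraries and 9.33 and 9.86 FPKM in EV GFP libraries. The EV GFP libraries were the lowest and the groups overlapped. The log2 difference was 0.14 (SE 0.091, limma adjusted p 0.546).
Sgce (ENSMUSG00000004631, chr6:4674350-4747207, minus strand) encodes epsilon-sarcoglycan, a membrane protein of the dystrophin-associated complex. It had 36.3 and 33.1 FPKM in YAP mCherry libraries and 32.6 and 34.8 FPKM in YAP GFP libraries, against 31.9 and 37.9 FPKM in EV mCherry libraries and 30.4 and 30.0 FPKM in EV GFP libraries. The groups overlapped, and the log2 difference was 0.075 (SE 0.083, limma adjusted p 0.730). Sgce and Ndn had the narrowest spread of the paternally expressed members, with log2 ranges of 0.34 and 0.42 over the 8 libraries, while Plagl1 spanned 1.81.

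By parental copy, the 4 maternally expressed members all had log2 differences above 0, with a median of 0.13, and 0 of 4 passed. Of the 6 paternally expressed members 3 were above 0 and 3 below, with a median of -0.092, and 0 of 6 passed. Within mCherry the median was -0.0062 for the maternal and -0.11 for the paternal members, and within GFP it was 0.28 and -0.0065 for the same groups. The median over all tested genes was -0.0038 with both reporters together, 8.7e-05 within mCherry and -0.013 within GFP. Of the 13276 tested genes 6543 were above 0 with both reporters together.

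Libraries were then read by arm, meaning each pair of vector and reporter. Both YAP GFP libraries lay outside the range of the other 6 libraries for 6 of the 10 members, with H19, Cdkn1c and Plagl1 above it and Dlk1, Peg3 and Mest below it. Over all tested genes 15.1% stood outside in the same way. The count was 2 members for YAP mCherry (11.3% of all genes), 2 for EV mCherry (9.17%) and 4 for EV GFP (13.9%). The 4 of EV GFP, Meg3, Cdkn1c, Ndn and Sgce, were all below the range of the other 6 libraries. This reading by arm was chosen after the values were seen, and it depends on scaling. With median-ratio scaling of the libraries the YAP GFP count was 5, without Peg3, and with quantile normalization it was 4, namely Cdkn1c, Plagl1, Dlk1 and Mest. The EV GFP count was 4 with either scaling (13.9% of all genes in each), with quantile normalization Cdkn1c, Grb10, Ndn and Sgce. Of 35 other imprinted genes that were tested, 8 stood outside in the YAP GFP libraries.
The tests by reporter gave no call among the members. For YAP minus EV, limma gave 0 of 10 within mCherry, where 0.399% of all tested genes passed, and 0 of 10 within GFP, where 1.3% did. At an unadjusted p under 0.05 there were 1 member within mCherry, Peg3 (11% of all tested genes), and 6 within GFP, H19, Meg3, Cdkn1c, Mest, Dlk1 and Plagl1 (16.1%). The difference of the 2 effects passed for 0 of 10 members and for 0.0678% of all genes, with 3 members at an unadjusted p under 0.05, Meg3, Cdkn1c and Mest (9.81%). So the effects were not shown to differ between reporters.
The reporter comparison itself, mCherry minus GFP with the vector as a term, passed for 0 of 10 members and 0.0904% of all genes. At an unadjusted p under 0.05 it held 4 members higher with mCherry and 0 lower. At that limit 5.98% of all tested genes were higher, a share that counts the higher direction only. Dlk1 differed by 0.32, Peg3 by 0.29, Mest by 0.29 and Grb10 by 0.19 on the log2 scale, with adjusted p between 0.311 and 0.463.

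**Figure D2:**
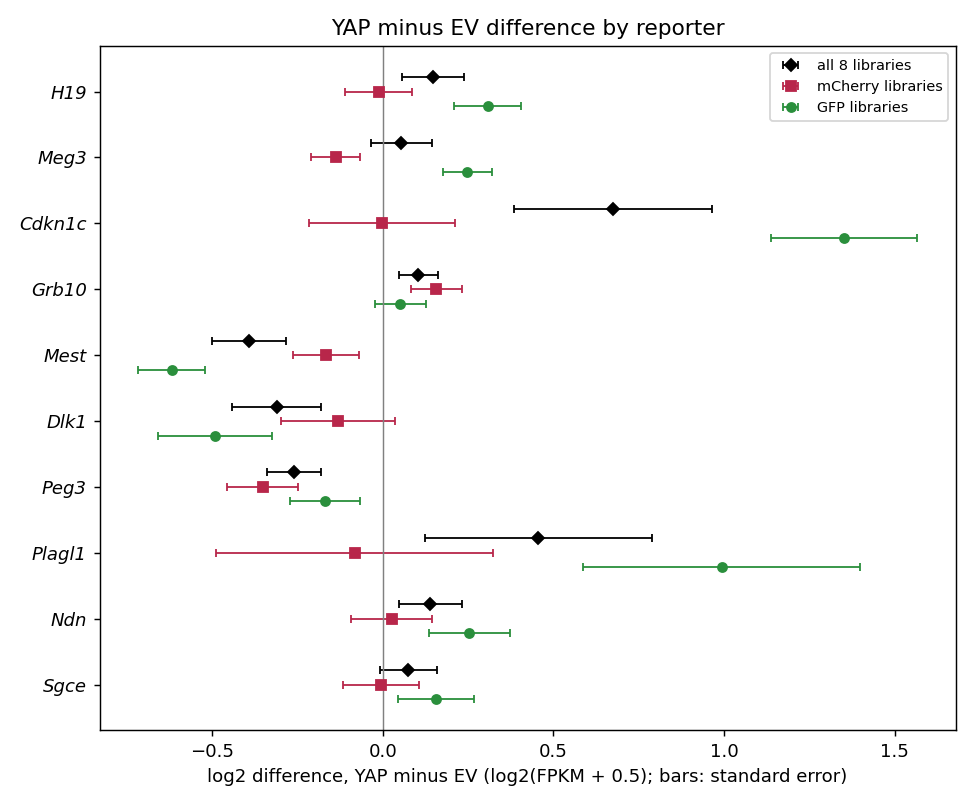
YAP minus EV log2 differences of log2(FPKM + 0.5) for the 10 members (horizontal axis), over all 8 libraries (black), within mCherry (red) and within GFP (green), with standard errors as bars. Cdkn1c lies near 0 within mCherry and at 1.35 within GFP, while Peg3 lies below 0 in both.

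Summed markers of macrophage, epithelial, endothelial and neural cells lay outside the range of the other 6 libraries in the YAP GFP libraries. Those of fibroblasts, adipocytes, chondrocytes and muscle overlapped that range. In bulk RNA fewer cells of a type and less RNA per cell cannot be told apart. The summed level of 15 macrophage markers was 180 to 397 FPKM in YAP and 315 to 446 FPKM in EV libraries, and in the 2 YAP GFP libraries it was 180 to 221 FPKM, below the other 6. Of the 13 tested macrophage markers 3 fell in YAP libraries, the complement genes C1qa and C1qc and the membrane gene Ms4a7, by 0.96, 0.90 and 1.53 on the log2 scale (limma adjusted p 0.0169, 0.0353 and 0.0240). The sum of 6 epithelial markers was 29.5 to 37.3 FPKM in YAP GFP libraries and 9.80 to 21.3 FPKM in the other 6, most of it the keratin Krt19, and Epcam was listed at 0. The 2 epithelial markers tested differed in opposite directions, Krt19 by 0.98 (limma adjusted p 0.132) and Krt18 by -0.34 (adjusted p 0.558). The sum of 8 endothelial markers was 2.70 to 4.75 FPKM in YAP and 1.35 to 1.86 FPKM in EV libraries, with Tie1 and Cldn5 at 0. The sum of 11 neural markers was 21.4 to 27.5 FPKM in YAP and 15.0 to 18.4 FPKM in EV libraries, highest in YAP GFP, most of it Map2, which rose (0.69, adjusted p 0.0169), with Rbfox3, Snap25 and Neurod1 at 0.
The sum of 13 fibroblast markers was 9941 to 11457 FPKM in YAP and 9939 to 10639 FPKM in EV libraries, and 3 of them fell, namely Lum, Pdgfra and Postn, by 1.31, 0.55 and 0.54. The sums of 6 adipocyte markers were 19.8 to 24.6 FPKM in YAP and 15.9 to 24.8 FPKM in EV libraries, with Plin1 at 0. Those of 6 chondrocyte markers were 17.4 to 27.2 FPKM in YAP and 22.3 to 26.4 FPKM in EV libraries, and those of 10 muscle markers, 6 of them at 0, 3.55 to 5.84 FPKM in YAP and 3.57 to 5.98 FPKM in EV libraries. None of these 3 lists had a gene that passed, and Acan and Comp of cartilage differed by -1.06 and -0.47, Lpl and Cebpa of fat by 0.61 and -0.60. The part of other cell types in the members' values was not tested.

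Neighbours in the members' imprinted clusters were read next, since imprinted genes lie in groups under shared control regions. Of 38 neighbours 20 passed the filter on level, and 0 of these 20 passed the test. Igf2, the growth factor gene paired with H19, had 1538 and 1636 FPKM in YAP mCherry libraries and 1171 and 1140 FPKM in YAP GFP libraries, against 977 and 1549 FPKM in EV mCherry libraries and 1183 and 1124 FPKM in EV GFP libraries. It overlapped between the groups, with a log2 difference of 0.18 (adjusted p 0.632), 0.37 within mCherry and 0.0030 within GFP. In the Dlk1 to Dio3 cluster, the maternal RNA Rian had 699 and 593 FPKM in YAP mCherry and 770 and 745 FPKM in YAP GFP libraries, against 622 and 686 FPKM in EV mCherry and 636 and 672 FPKM in EV GFP libraries. Its YAP GFP libraries were the highest. The log2 differences were 0.10 for Rian, 0.24 for Mirg, -0.42 for Begain, 0.055 for Meg3 and -0.31 for Dlk1. Rtl1 and Dio3, the paternal genes of that cluster besides Dlk1, were under 1 FPKM on average.
Around Cdkn1c, the genes Nap1l4, Cd81, Tssc4 and Osbpl5 differed by -0.05, 0.02, -0.04 and -0.28, and Phlda2, Ascl2 and Kcnq1ot1 were under the filter. Osbpl5 differed by 0.37 within mCherry and -0.93 within GFP (limma adjusted p 0.646 and 0.175). The difference between these effects was 1.30 (limma unadjusted p 0.0104, adjusted p 0.389). Zim1, beside Peg3, differed by -0.42 (adjusted p 0.526). Peg10, which shares a promoter region with Sgce, differed by -0.0023, and Phactr2, beside Plagl1, by 0.23. In the Sgce cluster, Ppp1r9a differed by -0.48 (limma adjusted p 0.346), Pon2 by 0.046, Pon3 by 0.19 and Casd1 by 0.13. Near Ndn, Snrpn differed by 0.09 and Ube3a by -0.24 (adjusted p 0.299), and the intronless Magel2 and Mkrn3 were under 1 FPKM. Peg12 differed by 0.37 and Atp10a by -0.19 (limma adjusted p 0.386 and 0.388), and the Atp10a groups did not overlap.

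**Figure D3:**
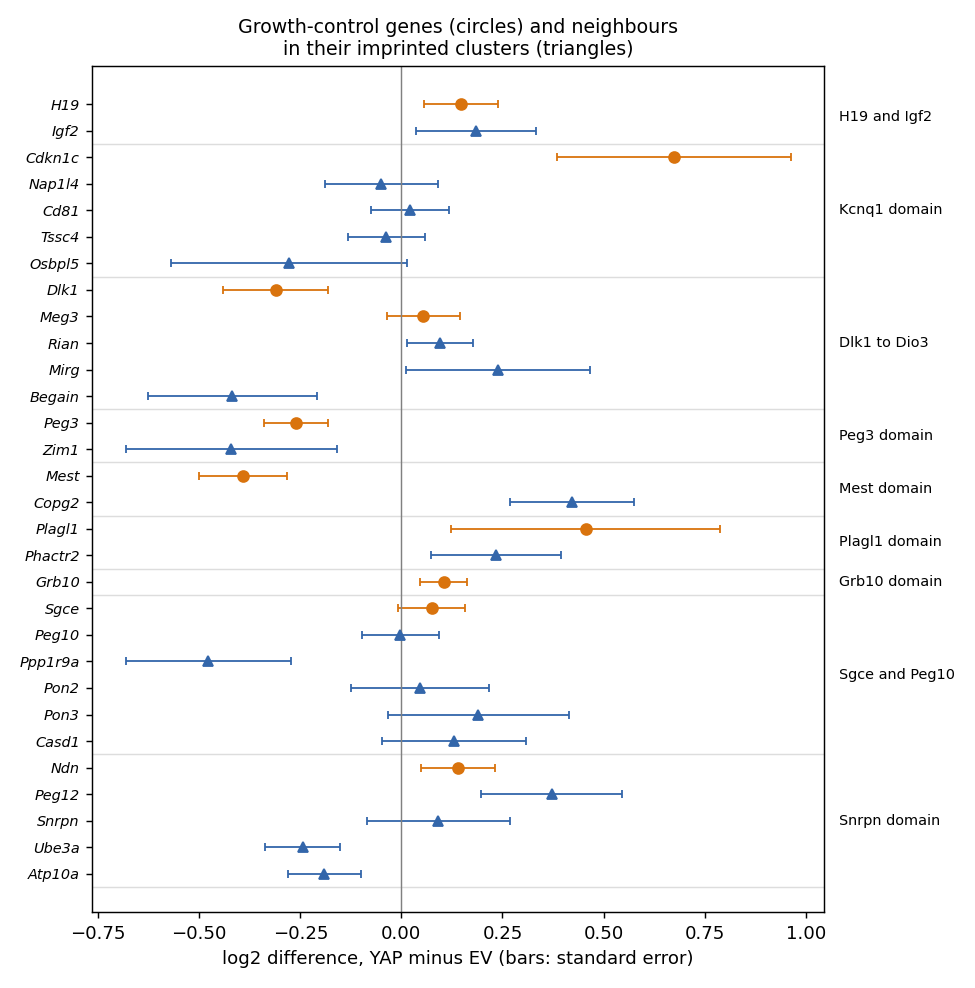
YAP minus EV log2 differences (horizontal axis, bars are standard errors) of the members (circles) and of the 20 tested neighbours (triangles), grouped by imprinted cluster. Mest and Copg2 lie on opposite sides of 0, and each cluster with more than 2 genes has values on both sides.

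Among 35 tested of 59 other imprinted genes found in the table, 0 rose and 0 fell, with a median of 0.027. At an unadjusted p under 0.05 there were 3 higher and 3 lower. The smallest p belonged to Slc38a4, an amino acid transporter gene active in placenta and liver, with 76.8 and 65.7 FPKM in YAP mCherry and 71.1 and 80.1 FPKM in YAP GFP libraries, against 58.6 and 65.2 FPKM in EV mCherry and 57.0 and 58.9 FPKM in EV GFP libraries. Its groups did not overlap, and the difference was 0.29 (adjusted p 0.185). Dcn, which encodes the proteoglycan decorin and is imprinted in mouse placenta, differed by -0.42 (adjusted p 0.211), and Igf2r, the receptor that clears IGF2, by -0.14 (adjusted p 0.261). Genes that maintain or read imprints were 18 tested of 21, and 0 passed. Arid4a and Tet3 had the smallest p, with differences of -0.32 and -0.26 (adjusted p 0.274 and 0.291).

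**Figure D4:**
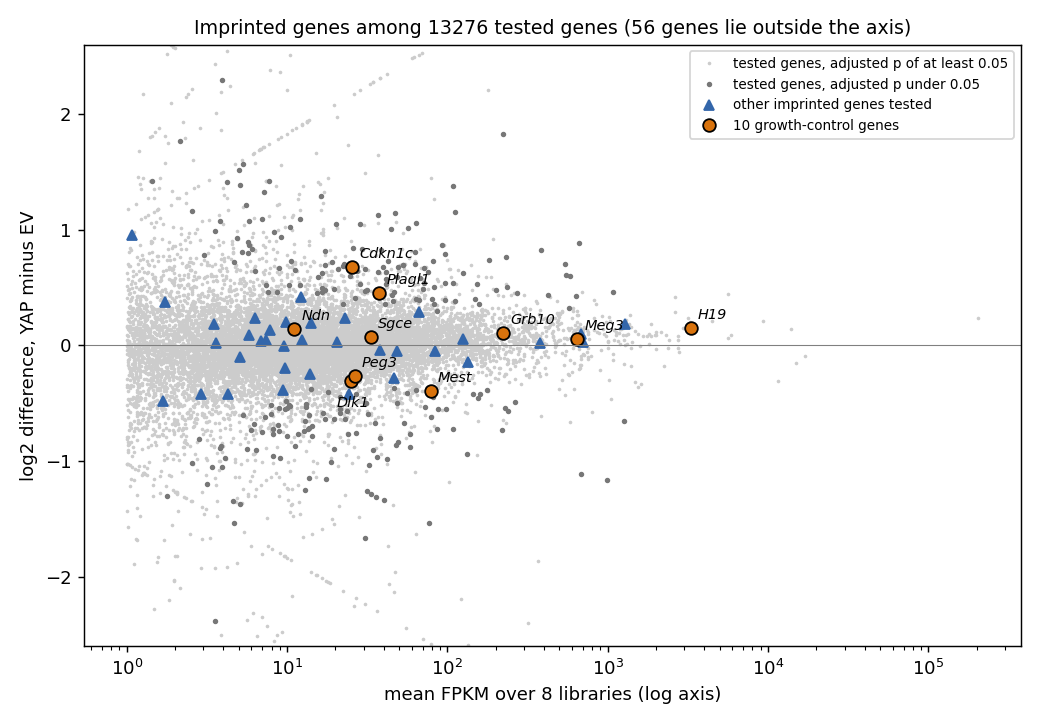
YAP minus EV log2 difference (vertical axis) against mean FPKM over the 8 libraries (log axis) for 13276 tested genes. Orange circles are the 10 members, blue triangles are the other imprinted genes and dark grey points passed an adjusted p of 0.05, and 56 genes lie outside the plotted range. H19 and Meg3 lie near 0 at the right, and Cdkn1c and Mest are the highest and the lowest of the members.

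Pathways around single members were counted from lists that include the member itself. Of the 7 cyclin-dependent kinase inhibitors of the Cip/Kip and INK4 families 0 passed. Cdkn2b had 54.8 and 71.0 FPKM in YAP mCherry and 66.2 and 63.3 FPKM in YAP GFP libraries, against 44.2 and 52.5 FPKM in EV mCherry and 45.9 and 50.3 FPKM in EV GFP libraries. Its groups did not overlap (0.40, adjusted p 0.133), and Cdkn1a, the p21 gene, differed by 0.25 (adjusted p 0.222). Cdkn1b, the p27 gene and with Cdkn1c of the Cip/Kip family, differed by -0.06.
Of 18 proliferation genes 1 rose, Ccnd1, which encodes cyclin D1, with 90.5 and 102 FPKM in YAP mCherry and 130 and 142 FPKM in YAP GFP libraries, against 75.3 and 74.5 FPKM in EV mCherry and 79.4 and 84.9 FPKM in EV GFP libraries (0.54, adjusted p 0.0432), and 0 fell. Of 9 tested genes of the Notch pathway around Dlk1, 0 passed. Hey1, a transcriptional target of Notch, had 1.93 and 1.55 FPKM in YAP mCherry and 1.13 and 0.818 FPKM in YAP GFP libraries, against 4.25 and 4.46 FPKM in EV mCherry and 7.12 and 2.91 FPKM in EV GFP libraries, and its groups did not overlap (-1.46, adjusted p 0.0641). Notch3 differed by 0.32 (adjusted p 0.165).
Of 7 tested genes of the GRB7 family and its receptors 0 passed, with 0.31 for Grb14 and 0.13 for Igf1r. Of the 3 PLAG family genes 0 passed, with -0.21 for Plag1 and -0.025 for Plagl2. The counts were 0 of 5 for the sarcoglycan complex (Sgcb -0.14, Sgcd 0.16), 0 of 6 for the MAGE family (Magee1 0.21, Mageh1 -0.11) and 0 of 5 for PEG3 partners and related zinc fingers (Siah1a -0.23). For 7 genes that process H19 or bind its RNA or that of IGF2 the count was 0, and Igf2bp1 differed by 0.74 (adjusted p 0.464), with 1 high library, YAP replicate 4, at 25.4 FPKM, and Igf2bp2 by 0.094.

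The genes most like a member were sought for the 2 members whose log2 values spanned at least 1, by the root mean square difference of centred log2 profiles over the 8 libraries among 11248 genes. For Cdkn1c they were Arxes1 and Arxes2, at 0.17 and 0.18. These are near-identical copies of each other and their values are uncertain. For Plagl1 they were Akap2, at 0.13, and Ctnnal1, at 0.16. Akap2 had 59.4 FPKM in YAP replicate 2 and 14.9 to 21.5 FPKM in the other 7 libraries, so the likeness rests on 1 library.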

How the data were processed

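RNA of 8 MEF libraries, made with a strand-keeping polyadenylated RNA kit per the labels' protocols, was measured, 4 YAP and 4 EV, each with 2 mCherry (replicates 3 and 4) and 2 GFP libraries (replicates 1 and 2). The deposited per-library table holds FPKM per gene, per the file headers. The authors' comparison of the pooled groups, also deposited, gives FPKM once for each group beside a p-value and its q-value, per the file headers. Its arms are named FP and wtYAP-FP and were taken here as EV and YAP. The submitters' processing notes name TopHat, Cufflinks and mm10. Versions, scaling and strand setting are not given in the sources used here.

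Of 48641 rows, 114 rows of 49 repeated identifiers were left out. Biotypes and 1-based coordinates came from GENCODE M21 (GRCm38), which held 48169 of the 48527 genes. Genes with a mean of at least 1 FPKM were fitted as log2(FPKM + 0.5) with limma 3.58.1 (R 4.3.3), with a variance trend and a reporter term. Differences on this scale understate the change of low genes. Effects by reporter are contrasts of 4 arm means with a shared spread. P-values were adjusted by Benjamini-Hochberg over all 13276 genes. The fit was tested on simulated data. Exact two-sided permutation tests compared 4 with 4 values. Other software was pandas 2.3.3, matplotlib 3.10.9 and numpy 2.4.6 under Python 3.11.15.

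Named genes are all members, genes past the threshold in each list or else the 2 with the smallest p, cluster neighbours, and the 2 genes most like a member of log2 range 1 or more. Igf2r, Cdkn1b and the antisense model in Cdkn1c were chosen after their values were seen. The members and the 22 lists were chosen with earlier results of these data known. Depth is unknown, so no counting interval is given, and an exact 0 can be a failed estimate. The alternatives changed the pseudocount, filter, scaling, reporter term, variance trend, replicate block, contrast by reporter and libraries.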

Additional observations from a re-analysis of the deposited data

Results flagged for a closer look

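Plagl1 in YAP replicate 2, a GFP library, stood apart from its group, with 94.9 FPKM beside 36.1 FPKM in the nearest YAP library and a gap of 0.862 of the range of the 4 YAP libraries, above Dixon's critical value. Chance gives about 1 such lone value in 20 groups of 4, and among the 20 groups of members checked there was 1. Over 320 groups of the members and listed genes there were 23.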

How the results depend on the processing

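Over 19 alternatives limma called 0 members for YAP minus EV, and over 15 it called 0 for mCherry minus GFP. Of 190 YAP minus EV values of members, 184 kept their direction and 6 reversed. This count overstates the stability. The settings that changed only the filter, reporter term, variance trend or replicate block return the same estimate in this balanced design. They could therefore not reverse it. In the contrast within mCherry, taken from the fit to all 8 libraries, H19 was -0.011, Meg3 -0.14, Cdkn1c -0.00088, Plagl1 -0.082 and Sgce -0.0053, and with quantile normalization Meg3 was -0.021. For the difference between reporters, Grb10 was -0.050 with quantile normalization, and Plagl1 passed in 1 setting, without YAP replicate 1 (-1.77, limma adjusted p 0.0361, 0.0361 to 0.788 over its alternatives), which leaves YAP replicate 2 as the only YAP GFP library. The count of members called there ran from 0 to 1 when libraries were left out, an alternative chosen after seeing the data, as were the other scalings of the counts by arm. For mCherry minus GFP, Meg3 was -0.0080 with median-ratio scaling and -0.057 to 0.060 with 1 library left out, and Cdkn1c was -0.25 to 0.18. The causes were not tested.

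Counts of genes called moved more, from 124 higher and 109 lower. They were 75 and 71 with no filter, 80 and 70 with no reporter term, and 32 and 21 for that contrast within mCherry. Without the variance trend 78 were higher. Leaving out 1 library gave 24 to 55 higher and 17 to 55 lower, with fewer samples in each fit. With the replicate block there were 6 higher and 9 lower. Deviations of libraries with the same replicate number correlated at 0.052, 0.021, -0.015 and 0.090, and 2 of 4 libraries correlated best with their own number. With 4 libraries per group these values cannot decide whether the numbers pair the samples, so the block result is given as a count only. Depth in fragments is unknown and each reporter arm holds 2 libraries, which limits the precision of every effect by reporter.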
